A study of Mus musculus with 18 samples.

Results

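Orosomucoids, also called alpha-1 acid glycoproteins, are small plasma proteins of the lipocalin fold that are made mainly by hepatocytes and carry many sialylated N-glycans. They bind drugs and other lipophilic ligands in plasma and are among the classical positive acute-phase proteins, whose transcription in the liver rises when interleukin-1, interleukin-6 and glucocorticoids act through C/EBP, STAT3, NF-kB and the glucocorticoid receptor. The mouse genome holds 3 orosomucoid genes, Orm1, Orm2 and Orm3. They were picked by gene symbol, and each was found once in each of the 3 gene count tables, so that they make up 3 of 21018 genes listed in at least 1 table.

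The tables hold 18 libraries of liver RNA from 6 male C57/B6J mice, aged 12 weeks. Livers of 3 mice were taken 4 h after an intraperitoneal injection of 20 µg/kg of IL-1β, the cytokine interleukin-1 beta (mice I9579, I9582 and I9583), and those of the other 3 mice 4 h after saline (mice U9574, U9575 and U9576). From every mouse, RNA went into a library with each of 3 kits. Pico is a stranded total RNA kit (1.7 to 2.6 ng of RNA), V4 an unstranded poly(A) kit (0.8 to 1.3 ng) and TruSeq a stranded poly(A) kit (200 ng). Gene counts summed to 4024632 to 4134070 per Pico library, 12013453 to 12352473 per V4 library and 12348864 to 12858237 per TruSeq library. IL-1β and saline were compared inside each kit only, because each table was normalized separately, and kit, RNA amount and sequencing run cannot be told apart. Read length and sequencer model were the same for Pico and V4 and differed in TruSeq, where they cannot be told apart from the kit either. A gene is called here when its limma-voom p-value, adjusted by Benjamini-Hochberg over all genes of the table, is at most 0.05.

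The orosomucoid genes lie in a row on the plus strand of chromosome 4. In the mm9 annotation Orm1 (ENSMUSG00000039196) spans chr4:63005594-63009197, Orm3 (ENSMUSG00000028359) chr4:63017196-63020545 and Orm2 (ENSMUSG00000061540) chr4:63023483-63026912. The whole cluster covers 21319 bp, with 7998 bp between Orm1 and Orm3 and 2937 bp between Orm3 and Orm2. Each gene has 1 annotated transcript of 6 exons, with 775, 773 and 775 bp of exon for Orm1, Orm3 and Orm2, so that counts of the members can be set side by side almost without a correction for length. No other annotated gene overlapped a member.

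How far the counts of the members can be told apart depends on how much their sequences differ. Of exons 2 to 5, which are coding throughout, exon 2 differs most, at 40 of 143 positions, and is shown here from mm9 (Orm1 chr4:63006103-63006245, Orm2 chr4:63023978-63024120, Orm3 chr4:63017605-63017747, all plus strand, 5′ to 3′) with capitals at positions where the 3 members are not all alike.
Orm1: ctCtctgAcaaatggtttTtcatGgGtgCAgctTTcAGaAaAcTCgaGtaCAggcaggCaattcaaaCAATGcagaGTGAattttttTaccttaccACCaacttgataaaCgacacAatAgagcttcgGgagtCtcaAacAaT
Orm2: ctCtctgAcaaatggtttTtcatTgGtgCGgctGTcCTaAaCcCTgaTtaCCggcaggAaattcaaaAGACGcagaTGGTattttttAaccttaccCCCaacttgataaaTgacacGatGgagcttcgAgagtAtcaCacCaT
Orm3: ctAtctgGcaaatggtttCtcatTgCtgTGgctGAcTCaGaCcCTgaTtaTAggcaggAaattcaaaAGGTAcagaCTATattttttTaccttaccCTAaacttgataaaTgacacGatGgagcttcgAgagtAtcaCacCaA
Exon 5 is the opposite case, with 4 variable positions in 104, and is shown to the same rule (Orm1 chr4:63007316-63007419, Orm2 chr4:63025196-63025299, Orm3 chr4:63018823-63018926).
Orm1: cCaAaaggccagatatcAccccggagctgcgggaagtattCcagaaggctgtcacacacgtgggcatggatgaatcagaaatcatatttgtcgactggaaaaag
Orm2: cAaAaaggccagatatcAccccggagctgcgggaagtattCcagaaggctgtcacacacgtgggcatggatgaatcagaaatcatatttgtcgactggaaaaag
Orm3: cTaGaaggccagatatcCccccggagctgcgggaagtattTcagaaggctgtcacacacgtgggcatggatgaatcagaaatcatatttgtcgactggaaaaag
Over the whole transcript Orm1 and Orm2 were 91.0% identical, Orm2 and Orm3 88.0% and Orm1 and Orm3 86.1%. The longest run without a difference was 141 bp for Orm1 and Orm2, 75 bp for Orm2 and Orm3 and 65 bp for Orm1 and Orm3. A stretch of 125 bases, the TruSeq read length, was found unchanged in another member for 2.6% of the start positions in Orm1 and in Orm2 and for 0% of those in Orm3. For 150 bases, the read length of Pico and V4, the share was 0% in every member. For 50 bases, shorter than either read length, it was 20.4% in Orm1, 21.8% in Orm2 and 3.6% in Orm3. How the authors' counting placed reads that match more than 1 member is not given in the sources used here. An exchange of reads between members thus cannot be told apart from their own counts, and its size was not tested.

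IL-1β treated livers held far more orosomucoid RNA than saline livers in every kit. The mean number of counts per 1000000 counts of the library (CPM) rose 4.12-fold to 4.34-fold for Orm1 and, for Orm2, a minor member in saline liver, 18.3-fold to 20.5-fold, and both genes were called in all 3 kits. Orm3 was low in both groups and was called in TruSeq, but not in Pico or V4. The share of all tested genes called higher was 6.78% with Pico, 3.60% with V4 and 12.3% with TruSeq, and 10.8%, 7.41% and 21.8% were called lower. In bulk liver, a change in the share of cells that make a transcript and a change in its amount per cell cannot be told apart.

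**Figure D1:**
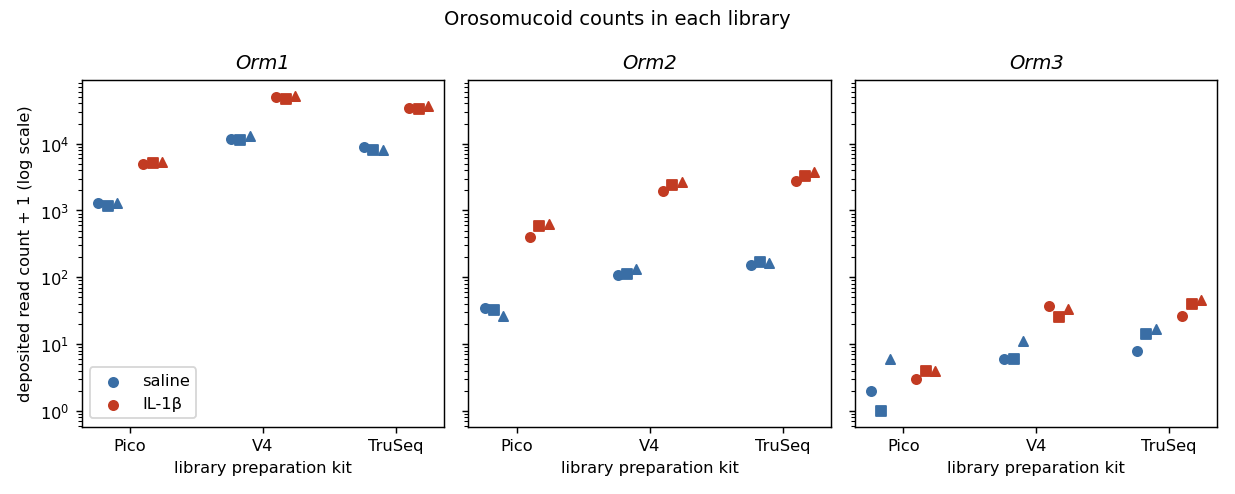
Deposited read counts plus 1 of Orm1, Orm2 and Orm3 (log scale) in each library, by kit, with saline mice in blue and IL-1β mice in red; each point is 1 mouse, and circle, square and triangle mark U9574, U9575 and U9576 in saline and I9579, I9582 and I9583 in IL-1β. For Orm1 and Orm2 every IL-1β point lies above every saline point of the same kit, while the Orm3 points of Pico lie between 0 and 5 counts in both groups.

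Orm1 was the most abundant member in every library. In Pico it had 4997, 5171 and 5294 counts in IL-1β mice I9579, I9582 and I9583 and 1284, 1171 and 1270 counts in saline mice U9574, U9575 and U9576. In V4 the counts, in the same order of mice, were 49340, 46778 and 52257 against 11849, 11173 and 13140. In TruSeq they were 34271, 33227 and 36850 against 8814, 7985 and 7987. The groups did not overlap in any kit, and the spread within a group was small, with a coefficient of variation of 2.9% to 5.54% in the IL-1β mice and 4.96% to 8.29% in the saline mice. The log2 fold change was 2.08 ± 0.08 (SE, n = 3 mice per group) with Pico, 2.04 ± 0.11 with V4 and 2.12 ± 0.09 with TruSeq. The limma-voom adjusted p-values were 4.92e-11, 1.83e-06 and 6.66e-07.

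Scaled to the library total and to exon length, Orm1 reached 3620 ± 188 CPM per kb of exon (SD, n = 3) in the IL-1β mice in TruSeq, against 835 ± 55.1 in the saline mice. On this scale it ranked between 25 and 27 of all genes with an annotated length in the IL-1β libraries of TruSeq, and between 71 and 79 in the saline libraries. In V4 its rank was 18 to 21 against 62 to 68, and in Pico 47 to 50 against 127 to 130. Orm1 was thus already among the highest genes of saline liver, and its rank moved up in each kit. In the IL-1β mice it took 0.388% to 0.433% of all gene counts in V4, 0.269% to 0.297% in TruSeq and 0.123% to 0.131% in Pico.

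Orm2 started from a much lower level. In Pico it had 406, 575 and 633 counts in the IL-1β mice and 34, 31 and 25 in the saline mice. In V4 the counts were 1979, 2421 and 2658 against 106, 112 and 134. In TruSeq they were 2722, 3238 and 3712 against 152, 171 and 164. Here too the groups were far apart, and the lowest IL-1β value of TruSeq (219 CPM) stood against a highest saline value of 13.4. The ratio of the mean CPM was 18.3 with Pico, 20.2 with V4 and 20.5 with TruSeq. The log2 fold change was 4.16 ± 0.34 (SE, n = 3), 4.32 ± 0.26 and 4.34 ± 0.15, with limma-voom adjusted p-values of 3.39e-07, 3.73e-06 and 2.49e-07.

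The IL-1β mice differed more from each other in Orm2 than in Orm1, with a coefficient of variation of 21.9% with Pico, 14.6% with V4 and 15.4% with TruSeq. Their order was the same in all 3 kits, with mouse I9579 lowest, mouse I9582 in the middle and mouse I9583 highest. For Orm1 the order of these mice was the same in V4 and TruSeq but another one in Pico. In the saline mice the TruSeq order of no member was repeated in Pico or V4. Over genes averaging 20 counts or more, the log2 fold change of Orm2 ranked 33 of 9687 with Pico, 57 of 10528 with V4 and 44 of 11529 with TruSeq, and that of Orm1 ranked 127, 203 and 182.

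Orm3 was the least abundant member in every library. In V4 it had 36, 24 and 32 counts in the IL-1β mice and 5, 5 and 10 in the saline mice. In TruSeq it had 25, 39 and 44 counts against 7, 13 and 16. In both of these kits the groups did not overlap, although in TruSeq the lowest IL-1β library, with 25 counts, came near the highest saline library. The log2 fold change was 1.62 ± 0.37 (SE, n = 3; limma-voom adjusted p = 0.00787) in TruSeq and 2.18 ± 0.67 in V4, where the limma-voom adjusted p of 0.061 missed the threshold. The V4 call depends on the fit: adjusted p was 0.0497 with limma-voom and TMM factors, 0.0161 with DESeq2 and 0.0607 with edgeR, and it ranged from 0.00662 to 0.213 over all settings.

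In Pico, Orm3 had 2, 3 and 3 counts in the IL-1β mice and 1, 0 and 5 in the saline mice, so the groups overlapped and both lay at a level of a few reads. The 95% interval of the limma-voom log2 fold change ran from -0.97 to 2.95 (adjusted p = 0.541). With every library thinned to 4024632 counts, the smallest Pico total, Orm3 in TruSeq had a median limma-voom adjusted p of 0.0433 over 5 draws. The median log2 fold change was 2.08. Single draws are not given, so whether each of them passed the threshold is not shown. In V4, where Orm3 was not called at full depth, the thinned median was 1.56 (median limma-voom adjusted p = 0.213). Mean levels of Orm3 in the IL-1β mice were 0.661 CPM with Pico, 2.53 with V4 and 2.91 with TruSeq, from tables normalized separately. Orm3 counts were 0.0488% to 0.0701% of the Orm1 and Orm2 counts together in the IL-1β libraries of V4 and 0.0418% to 0.0753% in the saline libraries. In TruSeq the same ratio was 0.0676% to 0.108% in the IL-1β libraries and 0.0781% to 0.196% in the saline libraries. The ratio overlapped between the groups in both kits, and whether some Orm3 counts are reads of the other members was not tested.

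**Figure D2:**
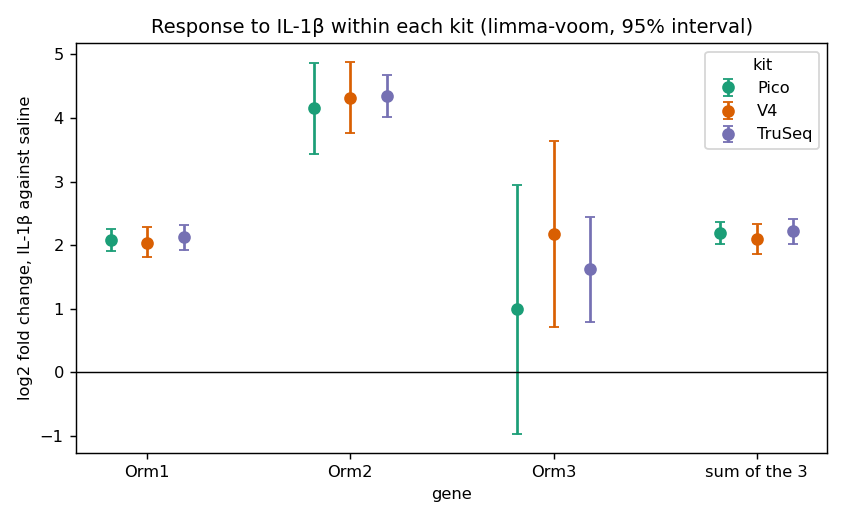
Log2 fold change of IL-1β against saline from limma-voom within each kit (colours), for each orosomucoid gene and for the sum of their counts, with 95% intervals, 3 mice per group. Orm1 lies near 2 and Orm2 above 4 in all kits, and the intervals of Orm3 are the widest, with that of Pico running from -0.97 to 2.95.

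The summed orosomucoid counts followed Orm1, which supplies most of them. Their log2 fold change was 2.19 ± 0.09 (SE, n = 3) with Pico, 2.10 ± 0.11 with V4 and 2.22 ± 0.09 with TruSeq, with limma-voom adjusted p-values of 3.21e-11, 1.39e-06 and 5.51e-07. Scaling bears on all of these values. With library totals, log2 fold changes over all genes had a median of -0.12 with Pico, -0.22 with V4 and -0.17 with TruSeq, and TMM factors moved it up by 0.14, 0.16 and 0.16. With TMM factors 52.9%, 49.7% and 50.9% of the calls were higher after IL-1β, against 38.6%, 32.7% and 36.0% with library totals. The log2 fold changes of Orm1 and Orm2 exceed this shift many times over, and both stayed called under either scaling.

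The groups were also apart in the makeup of the family, in which Orm2 took a larger part of the counts in every IL-1β library. Orm2 made up 2.36% ± 0.378 (SD, n = 3) of the orosomucoid counts in saline liver in Pico and 9.40% ± 1.67 after IL-1β. In V4 the share was 0.962% ± 0.0664 against 4.54% ± 0.593, and in TruSeq 1.93% ± 0.21 against 8.45% ± 0.964. The lowest IL-1β library exceeded the highest saline library in each kit, with Pico at 7.51% against 2.58%, V4 at 3.85% against 1.01% and TruSeq at 7.35% against 2.09%. Orm1 made up 90.6% after IL-1β against 97.5% in saline with Pico, 95.4% against 99.0% with V4 and 91.5% against 97.9% with TruSeq. The two-sided exact permutation test gave p = 0.1 for the share of Orm1 and of Orm2 in every kit, which is the smallest p that 3 mice against 3 allow, and 0.15 after Benjamini-Hochberg adjustment over 9 shares.

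Expressed as a ratio, saline liver held 46.7 to 58.0 Orm1 counts per Orm2 count in TruSeq and IL-1β liver 9.93 to 12.6. In V4 the ratio was 98.1 to 112 against 19.3 to 24.9, and in Pico 37.8 to 50.8 against 8.36 to 12.3. The log2 ratio of Orm2 to Orm1 was 2.10 higher after IL-1β with Pico, 2.28 with V4 and 2.23 with TruSeq, a change of 4.28-fold, 4.87-fold and 4.68-fold (two-sided exact permutation p = 0.1 in each kit, the smallest possible). The ranges of the Orm1 to Orm2 ratio in V4 lay above those of the other tables in both groups, but levels from different tables were not tested against each other.

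**Figure D3:**
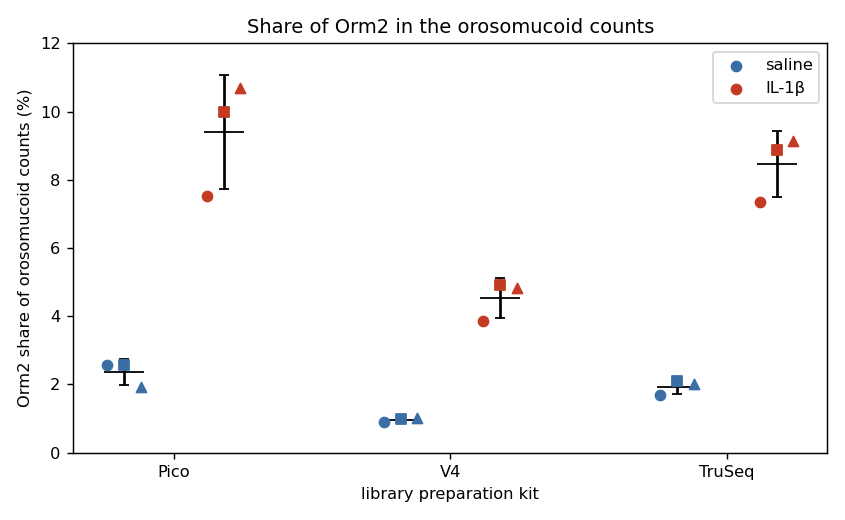
Share of Orm2 in the summed orosomucoid counts of each library (%), by kit, for saline (blue) and IL-1β (red) mice, with circle, square and triangle for U9574, U9575 and U9576 or I9579, I9582 and I9583; horizontal bars and whiskers give the mean and SD of 3 mice. The red points lie above the blue points of the same kit, and mouse I9579 has the lowest share of the IL-1β mice in each kit.

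The kits were then compared in how strongly each member responded, through the interaction of kit and treatment in limma-voom. This fit took the libraries of 2 kits as independent, although both sets come from the same 6 mice. For Orm1 the log2 fold change in Pico was lower than in TruSeq by 0.04 on the log2 scale, with a 95% interval of the difference (Pico minus TruSeq) from -0.27 to 0.20. V4 minus TruSeq was -0.07 (-0.35 to 0.20) and Pico minus V4 was 0.04 (-0.26 to 0.33). For Orm2 the differences were -0.19 (-1.0 to 0.63), -0.02 (-0.66 to 0.62) and -0.17 (-1.15 to 0.82). For Orm3 they were -0.63 (-2.58 to 1.31), 0.55 (-0.92 to 2.03) and -1.19 (-3.50 to 1.12), and those with Pico rest on counts of 5 or fewer.

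No member was called in any interaction. Of all genes tested, 0.00% were called in each of the 3 interactions (Pico minus TruSeq, V4 minus TruSeq and Pico minus V4) by limma-voom. Its unadjusted p was under 0.05 for 945, 1090 and 900 genes, which is 5.49%, 6.36% and 5.49% of those tested. edgeR also called 0 genes in each interaction, and DESeq2 called 4, 62 and 14, with no orosomucoid among them. With the mouse as a replicate block, limma-voom called 0, 10 and 0 genes, again with no orosomucoid among them. The intervals of Orm1 stayed within 0.35 of 0 on the log2 scale, while those of Orm3 reached -3.50.

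Promoter sequence is given for the 2 members with an entry in the RefSeq table (build GRCm38.p6, 250 bases before the start of transcription, plus strand, 5′ to 3′), Orm2 at chr4:63362199-63362448 and Orm3 at chr4:63355908-63356157. Capitals mark matches to the motifs searched, which were looked for on both strands, and positions count back from the start, with -1 as the last base before it.
Orm2: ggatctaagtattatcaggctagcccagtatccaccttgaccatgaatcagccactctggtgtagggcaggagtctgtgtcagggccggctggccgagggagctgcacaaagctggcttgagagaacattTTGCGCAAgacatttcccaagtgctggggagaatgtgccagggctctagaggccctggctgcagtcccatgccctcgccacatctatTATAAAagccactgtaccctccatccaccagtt
Orm3: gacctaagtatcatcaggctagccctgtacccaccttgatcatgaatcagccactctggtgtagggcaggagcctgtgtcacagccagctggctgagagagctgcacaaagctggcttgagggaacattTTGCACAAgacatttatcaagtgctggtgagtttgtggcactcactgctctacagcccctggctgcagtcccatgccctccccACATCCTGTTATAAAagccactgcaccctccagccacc
The motif of C/EBP factors, searched as TTGCNNAA, had 1 match in each, TTGCGCAA in Orm2 with its first base at -120 and TTGCACAA in Orm3 at -121, and is found in 9.57% of 32536 promoters of the same length. A TATAAA box began at -33 in Orm2 and at -29 in Orm3 (12.3% of promoters). The core ACANNNTGT of the glucocorticoid receptor motif matched in Orm3 at -38, directly before the TATAAA match without overlap, and not in Orm2 (5.82% of promoters). The STAT motif TTCNNNGAA (7.04% of promoters) and the NF-kB motif (7.28%) had 0 matches in these windows. The windows of Orm2 and Orm3 were 85.5% identical, and the mean counts of the genes in IL-1β liver in TruSeq were 3224 ± 495 and 36.0 ± 9.85 (SD, n = 3).

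Positive acute-phase plasma proteins, the functional group of the orosomucoids, were nearly all called higher. The list was chosen with earlier results of these data known, so its counts are given as a description. Of 20 other members of the group, 20 were called higher with Pico, 19 with V4 and 20 with TruSeq, with 0 called lower. Of all genes, 6.78%, 3.60% and 12.3% were called higher and 10.8%, 7.41% and 21.8% lower. In the group 19 genes were called in all kits, and the share of all genes called in all kits is not given here. The median log2 fold change of the group was 1.89, 1.89 and 2.10, against -0.12, -0.22 and -0.17 for all genes, and 1.88 in V4 with A2m set to the lower bound of its change. The largest rises in TruSeq, among genes called in all kits, were those of A2m (alpha-2-macroglobulin, a protease inhibitor), Saa3 and Saa2 (serum amyloid A, apolipoproteins of the acute phase). Saa3 had a mean of 71.7 ± 4.51 (SD, n = 3) counts in saline and 44100 ± 3210 in IL-1β liver in TruSeq, and log2 fold changes of 9.66 with Pico, 9.89 with V4 and 9.30 with TruSeq, and those of Saa2 were 8.53, 8.50 and 8.28. A2m counts in TruSeq were 2125, 1736 and 2564 in the IL-1β mice and 3, 3 and 0 in the saline mice, and in V4, where saline liver had 0 counts, A2m was at least 438-fold higher (3 counts over the group as the floor).

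Against this group Orm2 stood among the stronger responders and Orm1 in the middle. In each kit 4 of the 20 genes had a larger log2 fold change than Orm2. A larger change than that of Orm1 was seen for 7 genes with Pico, 7 with V4 and 10 with TruSeq. For Orm3 it was 14 genes in Pico, where Orm3 was not called, 7 in V4, where it was not called either, and 14 in TruSeq.

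**Figure D4:**
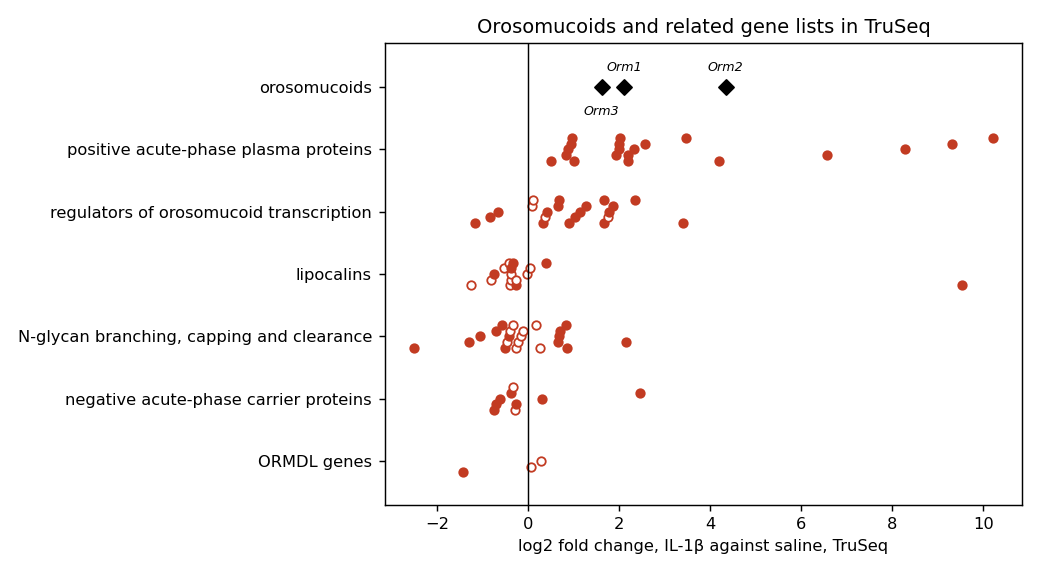
Log2 fold change of IL-1β against saline in TruSeq for the orosomucoids (diamonds) and for the genes of 6 related lists (circles, filled where the limma-voom adjusted p is at most 0.05); genes at 0 in all saline libraries are left out, and the vertical offset within a row has no meaning. The 20 positive acute-phase genes all lie right of 0, and the lipocalins other than Lcn2, the point at 9.53, lie near or left of 0.

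Genes listed as regulators of orosomucoid transcription, among them receptors, transcription factors and other signalling genes, changed in both directions. Of 21 genes, 13 were called higher and 3 lower with Pico, 7 and 2 with V4 and 14 and 3 with TruSeq. The shares of all genes called higher and lower were 6.78% and 10.8%, 3.60% and 7.41%, and 12.3% and 21.8%. The median log2 fold change of the list was 0.69, 0.53 and 0.91, against -0.12, -0.22 and -0.17 for all genes. Il1r1, the signalling receptor of IL-1, rose from 997 ± 394 to 9880 ± 1280 counts (SD, n = 3) in TruSeq, with log2 fold changes of 3.65 with Pico, 2.91 with V4 and 3.41 with TruSeq. Myd88, the adaptor of that receptor, rose by 2.21, 2.33 and 1.86, and Cebpd, which codes for C/EBP delta, by 1.76, 2.06 and 1.79. Cebpa, which codes for C/EBP alpha, fell by 1.15, 0.94 and 1.16 on the log2 scale, and Il1rap, the co-receptor of Il1r1, fell by 0.50, 0.65 and 0.66.

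Cebpb, which codes for C/EBP beta, is named here after its values were seen. It was called higher in Pico and TruSeq, with log2 fold changes of 1.07 (limma-voom adjusted p = 0.000133) and 1.27 (0.000748). In V4 the value was -1.40 ± 0.54 (SE) with an adjusted p of 0.129, and the saline libraries of V4 had 1140 ± 710 counts (SD, n = 3). limma-voom called it in none of the interactions between kits.

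Of 19 other lipocalins listed, 16 were tested with Pico, 16 with V4 and 17 with TruSeq. Called higher were 2, 1 and 2 and called lower 1, 1 and 4, shares near those of all genes given above, and the medians were -0.14, -0.28 and -0.36. Lcn2, an iron-siderophore binding lipocalin, rose from 70.0 ± 19.0 to 49500 ± 5210 counts (SD, n = 3) in TruSeq, with log2 fold changes of 9.03, 9.95 and 9.53 in Pico, V4 and TruSeq. Rbp4, the plasma retinol carrier, fell by 0.73, 0.58 and 0.75 on the log2 scale.

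Orosomucoids leave the hepatocyte with branched and sialylated N-glycans, and genes of N-glycan branching, capping and clearance were counted for this reason. Of 22 genes, 4 were called higher and 2 lower with Pico, 3 and 1 with V4 (21 tested) and 6 and 7 with TruSeq. The shares of all genes called higher and lower were 6.78% and 10.8%, 3.60% and 7.41%, and 12.3% and 21.8%. The medians of the list were 0.02, -0.32 and -0.24, against -0.12, -0.22 and -0.17 for all genes. St6gal1, which adds the alpha-2,6-linked sialic acid that caps plasma glycoproteins, rose from 1020 ± 108 to 4380 ± 602 counts (SD, n = 3) in TruSeq. Its log2 fold change was 2.03 with Pico, 1.64 with V4 and 2.15 with TruSeq. Man1a, a mannosidase that trims N-glycans, rose by 0.59, 0.90 and 0.86, and B4galt1, a galactosyltransferase, by 1.36, 0.97 and 0.83.

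Other carriers in plasma, listed as negative acute-phase proteins, included more genes called lower than higher, as did all genes. Of 9, 6 were called lower and 1 higher with Pico, 4 and 1 with V4 and 5 and 2 with TruSeq. The shares of all genes called lower and higher were 10.8% and 6.78%, 7.41% and 3.60%, and 21.8% and 12.3%. The medians of the list were -0.33, -0.29 and -0.32, against -0.12, -0.22 and -0.17 for all genes. Serpina6, the corticosteroid-binding globulin, fell by 0.75, 0.67 and 0.71 on the log2 scale. Serpina7, the thyroxine-binding globulin, went the other way and rose by 2.25, 2.05 and 2.45. The ORMDL genes, which share only the start of their name with the orosomucoids and act on sphingolipid synthesis, had 1 of 3 called lower with Pico, 0 with V4 and 1 with TruSeq, and none called higher.

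Of the genes around the cluster, none was called in all 3 kits. Within 500 kb the mm9 annotation lists 23 other genes, of which 9 are present in all tables. On the Orm1 side the nearest gene averaging 20 counts or more in each kit was Col27a1, a collagen gene that ends 9569 bp before Orm1. Its log2 fold change was -1.42 ± 0.20 (SE, n = 3; limma-voom adjusted p = 7.94e-05) with Pico, -1.06 ± 0.52 (0.235) with V4 and -0.85 ± 0.25 (0.026) with TruSeq. On the Orm2 side it was Atp6v1g1, a subunit of the vacuolar proton pump 178894 bp away, with 0.36 ± 0.28, 0.16 ± 0.16 and 0.36 ± 0.10 (adjusted p = 0.44, 0.602 and 0.0162).

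Akna, which codes for an AT-hook transcription factor, lies 1247 bp beyond Orm2 on the opposite strand, and it was called in none of the kits, with log2 fold changes of 0.11 ± 0.44, 0.12 ± 1.02 and -0.39 ± 0.27 (SE, n = 3). Ambp, which codes for alpha-1-microglobulin, another lipocalin, lies 189761 bp to the other side. It was called higher in Pico (0.28 ± 0.07) and TruSeq (0.39 ± 0.09), and had 0.28 ± 0.10 in V4 (limma-voom adjusted p = 0.0973). The pseudogene Gm11212, named after its values were seen, lies between Orm1 and Orm3 and had 1, 5 and 2 counts in the IL-1β and 0 in the saline libraries of TruSeq. In V4 it had 0, 0 and 3 counts against 0, 2 and 0.

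**Figure D5:**
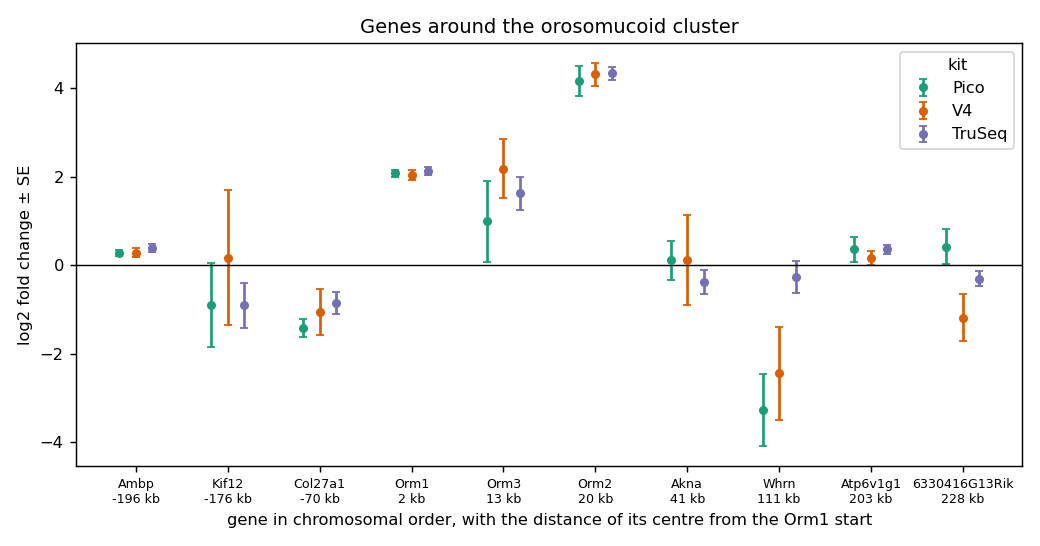
Log2 fold change ± SE of IL-1β against saline for the orosomucoids and the 7 neighbours within 500 kb with a mean of at least 1 count in each kit, in chromosomal order and coloured by kit; labels give the distance of each gene's centre from the start of Orm1 in kb. The values of Orm1, Orm3 and Orm2 stand above those of their neighbours, which lie between -3.28 and 0.42. The SE bars of Orm3 overlap those of some neighbours in Pico (0.99 ± 0.92) and in V4 (2.18 ± 0.67).

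The genes with a pattern most like that of each member were found by Pearson's r over the 18 libraries, on log2(CPM + 1) less the mean of each kit, among genes averaging 20 counts or more in each kit. The libraries come from 6 mice in 2 groups, so the points share animals and treatment, and r is given as a description. For Orm1 the closest were Ptpn1 (0.998), a tyrosine phosphatase, Saa2 (0.997), Saa3 (0.997), Lcn2 (0.997) and Orm2 (0.996). For Orm2 they were Lcn2 (0.997), Hpx (0.996), the plasma haem binder, Orm1 (0.996), Ptpn1 (0.995) and Saa3 (0.994). Among the 8959 genes compared with each, many besides those named also had a high r with Orm1 or Orm2. The named genes are thus the top of a long list and not a separate set. For Orm3 the highest values were lower, with Id3 (0.889), an inhibitor of basic helix-loop-helix factors, Dap (0.875), Sdsl (0.868), Zfp295 (0.865) and Atf5 (0.861), a bZIP transcription factor, and r with Orm1 and Orm2 was 0.779 and 0.782. Orm3 lay near the floor in Pico, where its mean of 0.661 CPM in IL-1β and 0.485 in saline mice was below the 1 added. The part of low counts in these values of r was not tested.

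The tissue label was checked with markers of liver cell types. All 8 hepatocyte markers were detected in each kit, with a summed level in TruSeq of 75100 to 78100 CPM in the IL-1β and 94200 to 111000 in the saline mice, and with no overlap in Pico (64800 to 70800 against 74500 to 84500) or V4 (41200 to 45700 against 48700 to 60600). Single hepatocyte markers went both ways, with 3 called higher and 4 lower with Pico, 1 higher and 2 lower with V4 and 2 each way with TruSeq. Alb, which supplies much of the sum, had 619000 ± 45600 counts in IL-1β and 978000 ± 103000 in saline liver in TruSeq (SD, n = 3). The part of these differences in the orosomucoid values was not tested. Of 9 neutrophil markers, 5 were called higher in each kit, of 5 tested with Pico, 7 with V4 and 8 with TruSeq. Their summed level was 22.2 to 32.5 CPM against 0.242 to 1.71 with Pico, 41.6 to 77.4 against 2.07 to 4.41 with V4 and 36.8 to 75.7 against 1.56 to 3.00 with TruSeq. Of the defining markers, Ly6g was not listed in Pico and V4 and had at most 2 counts in TruSeq, where S100a8 had 145 to 312 counts against 6 to 13, and the part of these cells in the orosomucoid values was not tested. Of 7 detected markers of Kupffer cells and macrophages, 4, 2 and 5 were called lower in Pico, V4 and TruSeq, and 0, 0 and 1 higher. Called lower and higher in the same order of kits were 2, 1 and 3 and 2, 0 and 1 of 5 endothelial markers, 2, 1 and 2 and 0, 0 and 0 of 5 stellate cell markers, 0, 0 and 0 and 1, 0 and 2 of 4 cholangiocyte markers, and none of 5 erythroid markers. Over all genes 10.8%, 7.41% and 21.8% were called lower and 6.78%, 3.60% and 12.3% higher.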

How the data were processed

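Livers of 6 mice were profiled by RNA-Seq with 3 kits, 18 libraries in all. The authors aligned reads to mm9 with GSNAP, removed ribosomal reads, used PORT to resample the reads of each kit to equal depth, and deposited whole-number read counts per gene. Sense reads were counted in the stranded kits, and reads of either strand in V4. Whether reads matching several genes were counted is not given in the sources used here.

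Each kit was fitted by limma-voom (limma 3.58.1, R 4.3.3) over all genes of its table. The study's methods name limma-voom, and library totals as scaling were chosen here. Kits were compared by an interaction. Shares were compared by two-sided exact permutation tests (scipy 1.17.1). Alternatives were TMM factors, edgeR 4.0.16, DESeq2 1.42.0, at least 10 counts in 3 libraries, leaving out each mouse, thinning to 4024632 counts, 1 fit of 18 libraries, the mouse as block and counts per exon length. For the summed counts and for the Orm2 to Orm1 ratio, alternatives were added after seeing the data. The fits were tested on simulated data.

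RNA of each mouse was split between kits, so mouse numbers pair libraries across kits. Deviations from group means correlated at 0.191 to 0.437 (Pico and TruSeq), 0.157 to 0.439 (V4 and TruSeq) and 0.0718 to 0.225 (Pico and V4) for the same mouse. For different mice of the same group the values were -0.351 to -0.055, -0.295 to -0.0622 and -0.171 to -0.0295.

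Members and gene lists were chosen with earlier results of these data known. Named genes are the members and genes of the lists. In each list these are the 3 largest rises and 2 largest falls by TruSeq log2 fold change among genes called in all kits. The nearest gene with an average of 20 counts or more on each side and the 5 genes most like each member are also named. Of the first 2 markers of each cell type, only Alb, Ly6g and S100a8 are named. Akna, Ambp, Cebpb and Gm11212 fall outside this rule. Sequences are from mm9 and from RefSeq, whose promoter table matched 2 of 3 members. With separate mice as replicates, p-values measure spread between mice and preparation together.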

Additional observations from a re-analysis of the deposited data

How the results depend on the processing

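Orm1, Orm2 and the summed counts rose and stayed called in each kit under every setting run, with log2 fold changes of 2.0 to 2.28 for Orm1, 4.03 to 4.51 for Orm2 and 2.05 to 2.37 for the sum. Orm3 stayed called in TruSeq, at 1.30 to 2.08 (adjusted p at most 0.0445, with medians of 5 draws for the thinned libraries), and uncalled in Pico. In V4 the log2 fold change of Orm3 was 2.34 with TMM factors and 2.39 with DESeq2, and 2.18 in 1 fit of 18 libraries, with or without the mouse as a replicate block (adjusted p = 0.00662 and 0.00721), and it was called in each; the cause was not tested.

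No member was called in an interaction under any setting, the replicate block included, and small differences changed sign. For Orm1, Pico minus V4 was -0.05 with TMM factors and with edgeR and -0.04 with DESeq2. For Orm2, V4 minus TruSeq was 0.03 with DESeq2.

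Leaving out 1 mouse at a time gave, for Orm1, -0.07 to 0.00 (Pico minus TruSeq), -0.13 to 0.01 (V4 minus TruSeq) and -0.01 to 0.07 (Pico minus V4), for Orm2 -0.08 to 0.07 (V4 minus TruSeq) and for Orm3 -1.57 to 0.02 (Pico minus TruSeq), where the highest value is that without saline mouse U9576. The change in the share of Orm3 went from -0.184 to 0.00868 percentage points in Pico and from -0.000751 to 0.016 in V4, while those of Orm1 and Orm2 kept their sign in each kit. Orm3 in Pico had no value with at least 10 counts in 3 libraries.

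Counts of called genes over the whole table moved more than those of the members. Against 3179 calls in Pico, leaving out mouse I9579, I9582 or I9583 gave 1997, 1765 and 2034. Against 1986 in V4, leaving out I9579, I9582, I9583, U9574 or U9575 gave 1196, 969, 1059, 1143 and 908, and 1 fit of 18 libraries gave 4698 (4728 with the replicate block). That fit gave 4239 in TruSeq (4311 with the block), against 6614. The interaction of V4 and TruSeq had 10 calls with the replicate block and 57 without mouse U9576, and that of Pico and V4 had 39 without it. Orm3 had 5 counts or fewer in every Pico library. With libraries thinned to 4024632 counts, its median limma-voom adjusted p over 5 draws in TruSeq was 0.0433.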
